A study of Rattus norvegicus with 21 samples.

Results

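The RNAs of insulin-like growth factor 1 and a pair of its binding proteins were followed in the urinary bladder of rats after spinal cord injury (SCI). The members were 3 genes out of 32754 in the count table, chosen by identifier: Igf1 (ENSRNOG00000004517), Igfbp2 (ENSRNOG00000016957) and Igfbp5 (ENSRNOG00000017206). All 3 cleared the filter on low counts and so belong to the 15225 genes tested. The symbols are those given with the identifiers, and no table at hand paired Ensembl identifiers with symbols, so the pairing was not checked here. Bulk RNA of the full-thickness bladder wall was sequenced from male wild-type Sprague Dawley rats, an outbred laboratory strain, aged 6 to 7 weeks when the cord was cut, so that bladders of the SCI groups came from animals older than that by the time since injury. In the SCI groups the spinal cord was cut completely at T8, a thoracic level, and bladders were taken 2, 8 or 16 weeks later. Uninjured controls, described by the study as matched in age, were taken at 0, 2, 8 and 16 weeks, so that 7 groups hold 3 libraries each, and no group is labelled with a treatment beyond the injury. The labels do not say outright that the libraries of a group came from separate rats, so p-values measure the spread between these libraries, which may in part be technical. The model removes the descending control of the bladder at once and in full, in males only, and each library mixes urothelium, connective tissue, muscle, nerves, vessels and blood cells.

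Igf1 encodes a secreted growth factor that signals through the receptor tyrosine kinase Igf1r and from there through the PI3 kinase and MAP kinase pathways. It is made in liver under growth hormone and also locally, by fibroblasts, macrophages and muscle, and it promotes growth and survival of smooth muscle. Most IGF1 outside cells is held by binding proteins, which lengthen its life, keep it from the receptor or bring it close to the cell surface. IGFBP2 is abundant in fetal and epithelial tissues and in blood, and IGFBP5 binds to extracellular matrix and is made by smooth muscle cells and fibroblasts. An injured cord leaves the bladder with uncoordinated outflow and overfilling, and its wall thickens.

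The stretch around an annotated start of each gene is shown, because Igf1 and Igfbp5 were called lower over the SCI groups and Igfbp2 was not called, although it lies next to Igfbp5. The sequences are from RefSeq (build GRCr8), where 3 of 3 members matched by symbol, and run from 250 bases before to 50 bases after the start, 5′ to 3′ on the strand of the gene. Igf1 has 9 transcript models in that table and Igfbp2 has 2, so their windows may not hold all of their starts. The Igf1 window is chr7:24172282-24172581 (+), the Igfbp2 window chr9:81864561-81864860 (+) and the Igfbp5 window chr9:81914138-81914437 (-). Capitals mark matches to 5 motifs searched on both strands, with letters TATAAA for a TATA box, CCAAT for a CCAAT box, GGGCGG for a GC box, TGACTCA for an AP-1 motif and CACGTG for an E-box. No motif overlaps another in these windows.
Igf1: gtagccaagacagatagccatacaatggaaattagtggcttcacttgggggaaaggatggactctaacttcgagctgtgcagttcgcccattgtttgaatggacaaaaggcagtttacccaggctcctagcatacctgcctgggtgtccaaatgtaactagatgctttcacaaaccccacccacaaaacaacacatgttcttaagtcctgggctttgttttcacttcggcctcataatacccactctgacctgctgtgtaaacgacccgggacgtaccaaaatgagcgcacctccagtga
Igfbp2: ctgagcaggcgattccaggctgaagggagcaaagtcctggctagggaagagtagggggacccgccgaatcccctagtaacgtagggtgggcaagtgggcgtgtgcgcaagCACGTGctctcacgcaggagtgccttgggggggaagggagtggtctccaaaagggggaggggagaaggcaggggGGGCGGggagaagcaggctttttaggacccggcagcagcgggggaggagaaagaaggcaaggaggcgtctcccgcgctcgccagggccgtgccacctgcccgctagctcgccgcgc
Igfbp5: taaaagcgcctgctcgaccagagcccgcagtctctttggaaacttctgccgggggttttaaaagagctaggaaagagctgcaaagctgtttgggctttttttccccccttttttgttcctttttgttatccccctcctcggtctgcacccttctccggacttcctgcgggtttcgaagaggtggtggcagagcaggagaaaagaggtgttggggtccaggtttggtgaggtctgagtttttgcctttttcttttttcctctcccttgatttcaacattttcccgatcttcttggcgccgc

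Igfbp2 alone held any of these motifs, a GC box whose first base lay at -66 and an E-box at -140. Over the 33469 windows of this length in the table, GGGCGG was found in 33.1%, CACGTG in 6.42%, CCAAT in 37.5%, TATAAA in 14.2% and TGACTCA in 4.63%. GC content was 66.7% for Igfbp2, 48.3% for Igf1 and 50.7% for Igfbp5, against a median of 51.7% over all windows. Igfbp2 and Igfbp5 were next to each other on chromosome 9, with no other gene between them in the table, and were read towards each other from opposite strands. A match to these letters is a description of the window and no evidence of binding.

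Total counts per library ranged from 8087726 to 15472537. Levels are given as CPM, counts scaled to library size and adjusted by trimmed mean of M values (TMM), and are compared between libraries for 1 gene, never between genes, since lengths were not used. Counts behind the values were 306 to 1397 for Igf1, 1653 to 4630 for Igfbp2 and 7165 to 41902 for Igfbp5. Counting error alone at the lowest of these was 5.72%, 2.46% and 1.18% of the value, while the coefficients of variation between libraries in the fit were 0.280, 0.219 and 0.180. With 3 libraries against 3, an exact two-sided permutation test of a single gene cannot go below p = 0.1, so calls rest on edgeR's quasi-likelihood test fitted to all genes and 21 libraries, with Benjamini-Hochberg adjusted p under 0.05. A level in whole bladder cannot tell fewer cells of a type from less RNA per cell.

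The first question was whether RNA of the growth factor itself differed between SCI and control bladders of the same week. Igf1 was 0.548 times its control level when the SCI effect was averaged over 2, 8 and 16 weeks, which is -0.87 on the log2 scale (SE 0.19) with an adjusted p of 0.00516 from edgeR. At 2 weeks Igf1 was 76.9, 84.1 and 99.6 CPM in controls and 44.7, 77.4 and 44.0 CPM after SCI. SCI replicate 2 reached into the control range, while the other SCI libraries were lower than every control. The mean was 86.9 ± 11.6 CPM (SD, n = 3) in controls and 55.4 ± 19.1 CPM (SD, n = 3) after SCI, and the difference of -0.65 on the log2 scale was not called (SE 0.33, edgeR adjusted p = 0.795).

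At 8 weeks Igf1 was 88.0, 125.4 and 73.9 CPM in controls and 42.4, 33.4 and 63.9 CPM after SCI. The groups did not overlap, and the highest control was the highest library of the series for this gene. The means were 95.8 ± 26.6 and 46.6 ± 15.7 CPM (SD, n = 3 each), and the log2 difference of -1.04 lay just outside the threshold (SE 0.33, 95% confidence interval -1.74 to -0.34, edgeR adjusted p = 0.0602). At 16 weeks Igf1 was 92.6, 47.0 and 89.2 CPM in controls and 44.5, 32.2 and 44.9 CPM after SCI. Control replicate 2 came within 2.11 CPM of the highest SCI library, although the groups again did not overlap. The log2 difference was -0.92 (SE 0.34, 95% confidence interval -1.62 to -0.21, edgeR adjusted p = 0.0981), which was not called either.

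Over all weeks, 7 of the 9 SCI libraries had less Igf1 than every control of 2 to 16 weeks, and 6 of those 9 controls had more than every SCI library. The SCI libraries ran from 32.2 through a median of 44.5 to 77.4 CPM, and these controls from 47.0 through 88.0 to 125.4 CPM. The 0-week controls had 36.7, 82.9 and 86.7 CPM. Replicate 1 of these lay inside the SCI range, as did 3 later controls, control 16 weeks replicate 2 at 47.0 CPM, control 8 weeks replicate 3 at 73.9 CPM and control 2 weeks replicate 1 at 76.9 CPM. With the 0-week controls included, 2 of 9 SCI libraries were below every control.

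**Figure D1:**
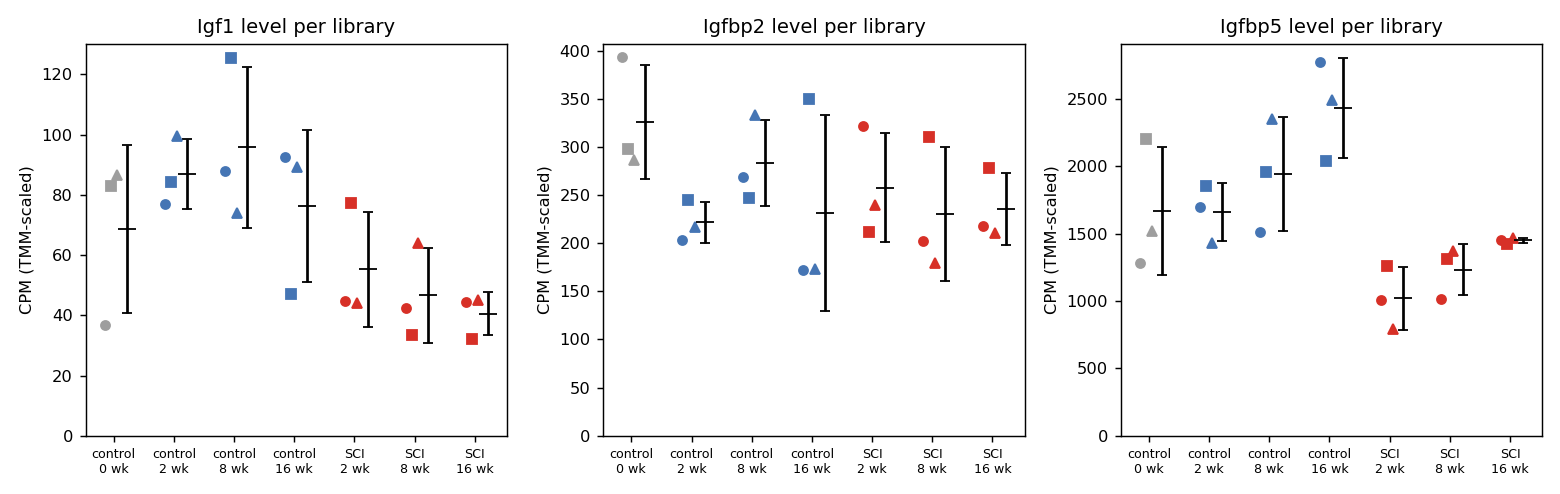
Levels of Igf1, Igfbp2 and Igfbp5 in CPM (TMM-scaled, linear axis from 0) in each library of the 7 groups. Circles, squares and triangles are replicates 1, 2 and 3, grey is control 0 weeks, blue the later controls and red SCI, and the bar beside each group is the mean ± SD (n = 3); SCI points of Igf1 and Igfbp5 lie mostly below the controls of their week, and those of Igfbp2 lie among them.

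The matrix-bound binding protein was lower by a similar amount at each week. Igfbp5 was 0.615 times its control level over the 3 weeks, which is -0.70 on the log2 scale (SE 0.12) with an adjusted p of 0.00115 from edgeR. At 2 weeks Igfbp5 was 1697, 1857 and 1428 CPM in controls and 1010.4, 1262 and 793 CPM after SCI. Every SCI library was below every control. The log2 fold change was -0.70 (SE 0.21, 95% confidence interval -1.14 to -0.26), and the adjusted p of 0.370 from edgeR did not pass in a comparison where no gene was called, although the unadjusted edgeR p was 0.00347.

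At 8 weeks Igfbp5 was 1514, 1963 and 2356 CPM in controls and 1019, 1311 and 1369.6 CPM after SCI. The groups did not overlap, and the log2 difference of -0.66 just missed the threshold (edgeR adjusted p = 0.0574, SE 0.21). At 16 weeks Igfbp5 was 2778, 2041 and 2493 CPM in controls and 1456, 1427 and 1468 CPM after SCI. The SCI libraries were nearly equal, with 1450.4 ± 21.4 CPM (SD, n = 3), and stood below controls of 2437 ± 372 CPM (SD, n = 3). Igfbp5 fell by 0.75 on the log2 scale (SE 0.21, edgeR adjusted p = 0.0455), which was the single call of a member at a given week. That call was lost when any of control 16 weeks replicate 1 (adjusted p = 0.167), control 16 weeks replicate 3 (0.0827) or SCI 16 weeks replicates 1, 2 and 3 (0.129, 0.0914 and 0.117) was left out of the edgeR fit.

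Against all 9 controls of 2 to 16 weeks, 7 of the 9 SCI libraries had less Igfbp5 than the lowest control, and 8 of the controls had more than the highest SCI library. The ranges met only between the lowest control, at 1428 CPM at 2 weeks, and the 16-week SCI libraries at up to 1468 CPM. Including the 0-week controls, at 1286, 2203 and 1522 CPM, 4 of 9 SCI libraries lay below every control.

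Igfbp2, the binding protein of epithelial and fetal tissues, showed no difference that the test could call. Its SCI effect over 3 weeks was -0.02 on the log2 scale (SE 0.15, 95% confidence interval -0.33 to 0.29, edgeR adjusted p = 0.948), an interval that leaves room for changes of either sign up to about that size. At 2 weeks Igfbp2 was 203, 245 and 217 CPM in controls and 321, 212 and 239.6 CPM after SCI. At 8 weeks it was 269, 247 and 333 CPM in controls and 202, 310.2 and 179.9 CPM after SCI. At 16 weeks it was 172, 349 and 174 CPM in controls and 218, 279 and 210.5 CPM after SCI. The groups overlapped at each week, and at 16 weeks control replicate 2 had about as much as the other controls of that week together. The log2 differences were 0.22 (SE 0.25, edgeR adjusted p = 0.967), -0.30 (SE 0.25, edgeR adjusted p = 0.477) and 0.03 (SE 0.25, edgeR adjusted p = 0.960) at 2, 8 and 16 weeks. Removal of 1 compared library gave 0.03 to 0.34, -0.57 to -0.14 and -0.15 to 0.45 at these weeks and -0.11 to 0.12 for the average, with no call in any of them. At 16 weeks the value was 0.45 without control replicate 2 and below 0 without control replicate 1, control replicate 3 or SCI replicate 2.

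**Figure D2:**
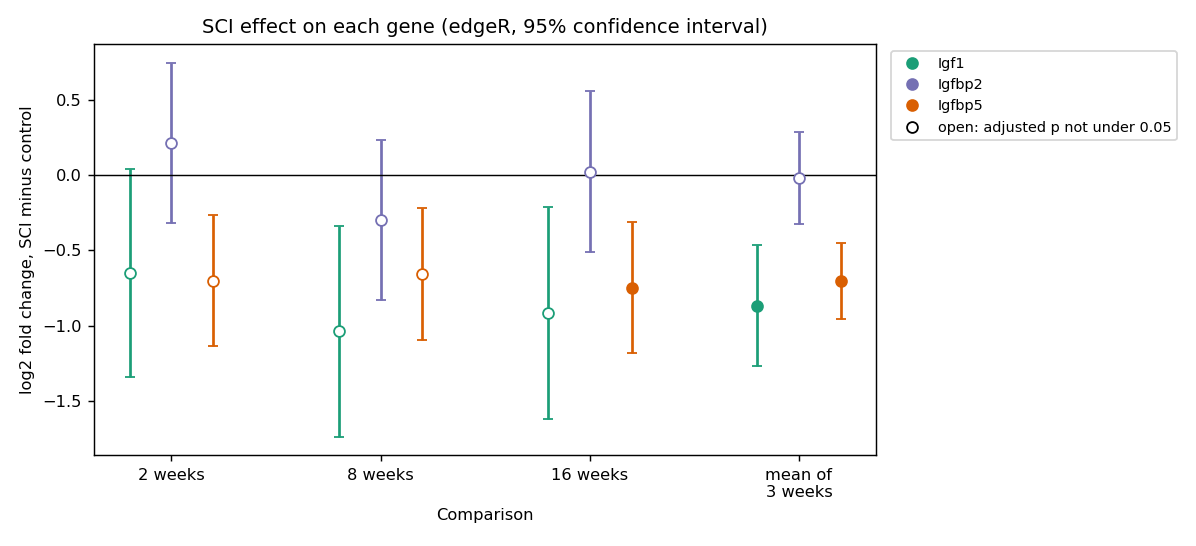
Log2 fold change of SCI minus control for Igf1, Igfbp2 and Igfbp5 at 2, 8 and 16 weeks and averaged over these weeks, as fitted by edgeR (3 libraries per group). Bars are 95% confidence intervals derived from the F statistic of edgeR. Filled points have an adjusted p under 0.05; the average effects of Igf1 (-0.87) and Igfbp5 (-0.70) and the 16-week effect of Igfbp5 (-0.75) are filled, and every Igfbp2 interval spans 0.

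These counts of calls stand against a broad change of the bladder transcriptome. Members called were 0 of 3 at 2 weeks, 0 of 3 at 8 weeks, 1 of 3 at 16 weeks and 2 of 3 for the average over weeks, where edgeR called 0%, 8.41%, 5.62% and 22.7% of all tested genes. At 2 weeks edgeR called 0 genes, 1016 genes had an unadjusted p under 0.05, and DESeq2 called 64. Without the 0-week controls edgeR called 9, 2466 and 2086 of 15138 genes at 2, 8 and 16 weeks and 4395 for the average. Igf1 and Igfbp5 were then also called at 8 weeks. The 3 SCI libraries lay wholly below the 3 controls for Igfbp5 at 2 weeks, and for Igf1 and Igfbp5 at 8 and at 16 weeks. The same held for 8.43%, 14.7% and 18.3% of tested genes at these weeks, so a lack of overlap was common in the series. These shares of calls are themselves sensitive to single libraries, since leaving out 1 library brought the number of genes called from 1281 to between 32 (without SCI replicate 1) and 2585 (without SCI replicate 2) at 8 weeks, and from 855 to between 16 (without SCI replicate 1) and 1729 (without control 0 weeks replicate 2) at 16 weeks. For 0.565% of tested genes all 9 SCI libraries lay below all 9 controls of 2 to 16 weeks, and no member was among them. By size, 2.52% of tested genes had a more negative average effect than Igf1 and 4.35% a more negative one than Igfbp5, whereas 47.4% were below Igfbp2.

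Whether the SCI effect itself changed with time was tested as an interaction, and no member was called. The Igf1 effect was shifted by -0.39 from 2 to 8 weeks on the log2 scale (SE 0.47, edgeR adjusted p = 0.820) and by -0.27 from 2 to 16 weeks (SE 0.47, edgeR adjusted p = 0.876). For Igfbp5 these differences were 0.04 (SE 0.29, edgeR adjusted p = 0.975) and -0.05 (SE 0.29, edgeR adjusted p = 0.968), with a 95% confidence interval of -0.57 to 0.66 for the former. The Igfbp2 effect was 0.22 at 2 weeks and -0.30 at 8 weeks, a difference of -0.51 with a 95% confidence interval of -1.27 to 0.24 (SE 0.36, edgeR adjusted p = 0.680). Between 16 and 8 weeks the differences were 0.12 for Igf1, 0.32 for Igfbp2 and -0.09 for Igfbp5 (edgeR adjusted p = 0.983, 0.922 and 0.978). Few genes of any kind were called, 0.0197% for 8 against 2 weeks and 0% for the other pairs, where 1180 genes (16 against 2) and 1010 genes (16 against 8) had an unadjusted p under 0.05 and DESeq2 called 6 and 20. For 8 against 2 weeks DESeq2 called 28 genes against 3 by edgeR, and those 3 became 0 when replicate 1 of the 2-week controls, replicate 2 of the 8-week controls or replicate 1 or 3 of SCI at 8 weeks was left out. For 16 against 8 weeks edgeR called 23 once replicate 2 of the 16-week controls was left out. The member differences also rested on few libraries, since removal of 1 compared library gave -0.68 to -0.07 for Igf1 from 2 to 8 weeks, -0.52 to 0.05 from 2 to 16 weeks (above 0 without SCI 2 weeks replicate 2) and -0.13 to 0.43 from 8 to 16 weeks. The corresponding ranges were -0.78 to -0.32, -0.37 to 0.23 and 0.14 to 0.74 for Igfbp2 and -0.11 to 0.22, -0.20 to 0.13 and -0.25 to 0.06 for Igfbp5, and no member was called in any of them.

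Levels over time within an arm gave no call for a member either. In controls, the mean of Igfbp5 was 1670.3 ± 476, 1661 ± 217, 1944 ± 421 and 2437 ± 372 CPM (SD, n = 3 each) at 0, 2, 8 and 16 weeks, and the steps between these times were -0.01, 0.23 and 0.33 on the log2 scale (SE 0.21 each, edgeR adjusted p = 0.992, 0.577 and 0.672). In SCI bladders it was 1022 ± 235, 1233 ± 188 and 1450.4 ± 21.4 CPM (SD, n = 3 each) at 2, 8 and 16 weeks, with steps of 0.27 and 0.23 (edgeR adjusted p above 0.99 for both). Removal of 1 compared library gave -0.16 to 0.24, 0.07 to 0.37 and 0.18 to 0.49 for the control steps of Igfbp5 and 0.12 to 0.45 and 0.12 to 0.32 for its SCI steps. Means of Igfbp5 thus had the same order in both arms from 2 to 16 weeks, but no step was called. Igfbp2 in controls was 326 ± 58.9 CPM (SD, n = 3) at 0 weeks and 222 ± 21.5 CPM (SD, n = 3) at 2 weeks. The 3 libraries of 0 weeks were all above the 3 of 2 weeks, as they were for 7.53% of tested genes, and the log2 change of -0.56 was not called (SE 0.25, edgeR adjusted p = 0.355). The later control steps of Igfbp2 were 0.35 from 2 to 8 weeks and -0.29 from 8 to 16 weeks (edgeR adjusted p = 0.465 and 0.782), and its SCI steps were -0.16 and 0.03 (edgeR adjusted p above 0.99 for both). Without 1 compared library these 5 steps of Igfbp2 ran from -0.64 to -0.39, 0.22 to 0.43, -0.71 to -0.12, -0.43 to 0.03 and -0.11 to 0.30 in time order, controls first. For Igf1 the steps between neighbouring times were likewise not called, with log2 differences of 0.34, 0.14 and -0.33 along the controls (edgeR adjusted p = 0.697, 0.853 and 0.819) and -0.25 and -0.20 along the SCI groups (edgeR adjusted p above 0.99 for both). These values rested on single libraries, since removal of 1 compared library gave 0.04 to 0.55, -0.11 to 0.30 and -0.49 to -0.07 along the controls and -0.54 to 0.07 and -0.40 to 0.10 along the SCI groups. The step from 2 to 8 weeks crossed 0 without control 8 weeks replicate 2 in controls and without SCI 2 weeks replicate 2 after injury, and the SCI step from 8 to 16 weeks without SCI 8 weeks replicate 3. Of all tested genes edgeR called 0% in controls for 2 against 0 and for 8 against 2 weeks, 0.0788% for 16 against 8 weeks, 0.0131% in SCI bladders for 8 against 2 weeks and 0% for 16 against 8 weeks. Where it called 0 genes, 2044, 2881 and 275 genes in this order had an unadjusted p under 0.05, and DESeq2 called 45, 269 and 1. Single libraries and settings weighed on these counts. For 2 against 0 weeks edgeR called 82 genes once replicate 3 of the 0-week controls was left out, and for 8 against 2 weeks it called 101 once replicate 2 of them was, 211 without the 0-week controls and 453 with only the groups compared. For 16 against 8 weeks the 12 genes became 129 after removal of replicate 2 of the 16-week controls and 0 after removal of replicate 3 of that group or of replicate 1 of the 8-week controls. In SCI bladders the 2 genes called for 8 against 2 weeks became 9 after removal of replicate 3 of SCI at 2 weeks, 7 after removal of replicate 1 of SCI at 16 weeks and 0 after removal of replicate 3 of SCI at 8 weeks, and DESeq2 called 22.

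Ordered by mean, Igf1 was highest in controls at 8 weeks, followed by controls at 2, 16 and 0 weeks and then by SCI at 2, 8 and 16 weeks. Each group overlapped with the next in this order. For Igfbp5 the order was controls at 16, 8, 0 and 2 weeks, then SCI at 16, 8 and 2 weeks. Only SCI at 16 and at 8 weeks, at 1427 to 1468 and 1019 to 1369.6 CPM, were neighbours without overlap, with SCI at 16 weeks wholly higher for 2.97% of tested genes, and the test did not call their difference. For both genes every control mean was above every SCI mean, and the share of tested genes with this order was not counted. For Igfbp2 controls at 0 and 8 weeks were highest and controls at 2 weeks lowest, with the SCI groups and controls at 16 weeks in between and overlap between all neighbours.

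The balance of Igf1 RNA to the RNA of its binding proteins was described within each library. Protein levels were not used, and a log2 ratio of counts does not depend on scaling. It mixes 2 genes of unequal length, so only its difference between groups has meaning, and no test was attached. The Igf1 to Igfbp2 ratio was lower in the SCI mean by 0.89 at 2 weeks (-2.25 against -1.35 in controls), by 0.73 at 8 weeks (-2.32 against -1.59) and by 0.96 at 16 weeks (-2.54 against -1.58). The groups overlapped at each week, with 2, 2 and 1 of 3 SCI libraries below every control. The Igf1 to Igfbp5 ratio differed by 0.02, -0.41 and -0.13, and fell inside the control range for 2 of 3 SCI libraries at each week. The Igfbp2 to Igfbp5 ratio was higher after SCI by 0.92, 0.32 and 0.83, and 3, 2 and 1 of 3 SCI libraries were above every control. SDs within a group reached 1.13 for the Igf1 to Igfbp2 ratio in controls of 16 weeks, more than any of these differences.

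**Figure D3:**
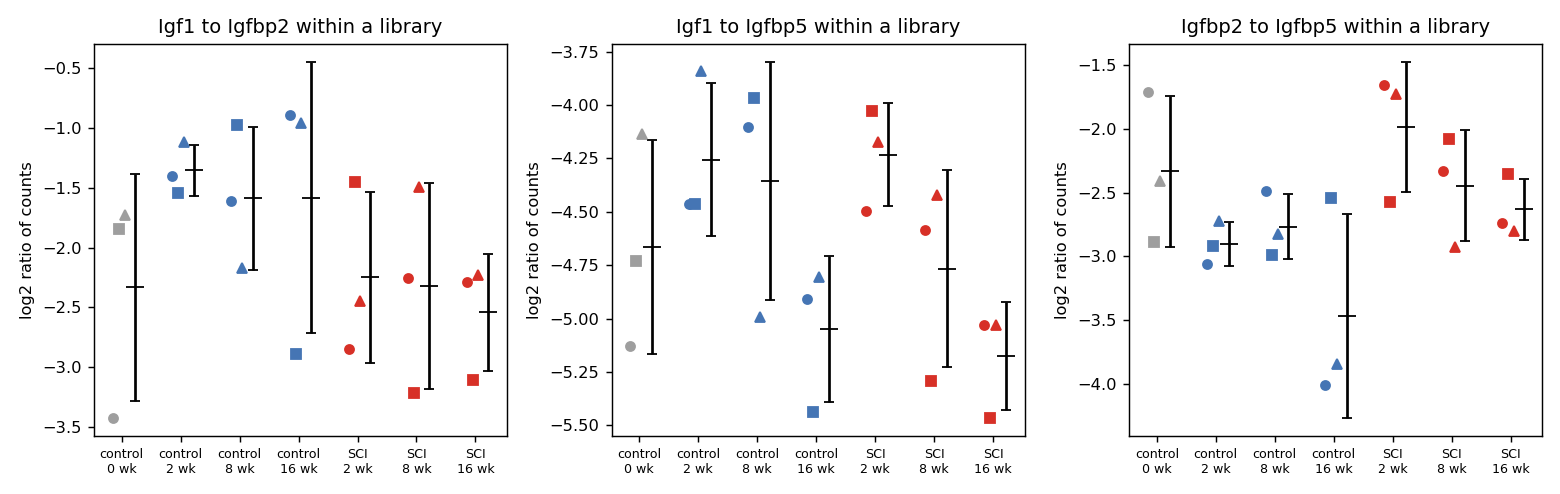
Log2 ratio of counts within each library (prior count 0.5 added to each) for Igf1 to Igfbp2, Igf1 to Igfbp5 and Igfbp2 to Igfbp5, by group, with markers and colours as in the plot of levels and bars for mean ± SD (n = 3). The axes do not start at 0; the Igfbp2 to Igfbp5 ratio of SCI libraries at 2 weeks lies wholly above that of its controls, and the Igf1 to Igfbp5 ratios overlap at each week.

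Igf1 and Igfbp2 also mostly varied in opposite directions among libraries of the same group. This was noticed after the values had been seen and is given as counts only. Deviations within a group share its mean, so the counts are not independent. How many other genes gave such counts was not computed. By Pearson's r of log2 CPM over the 21 libraries, group differences included, Igfbp2 ranked 12471 of 15224 genes in likeness to Igf1. Many genes were thus less like Igf1 than Igfbp2 was. All 10 libraries with Igf1 above the mean of their group had Igfbp2 below it, and 7 of the 11 with Igf1 below had Igfbp2 above. In 5 of 7 groups the library with the least Igf1 was the one with the most Igfbp2, and in 6 of 7 the library with the most Igf1 had the least Igfbp2. Among these were control 0 weeks replicate 1, with 36.7 CPM of Igf1 and 394 CPM of Igfbp2, and control 16 weeks replicate 2, with 47.0 and 349 CPM. Igf1 and Igfbp5 lay on the same side of their group means in 14 of 21 libraries, and Igfbp2 and Igfbp5 in 9 of 21. Whether the mix of cell types sampled from the wall differed between libraries of a group was not tested.

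**Figure D4:**
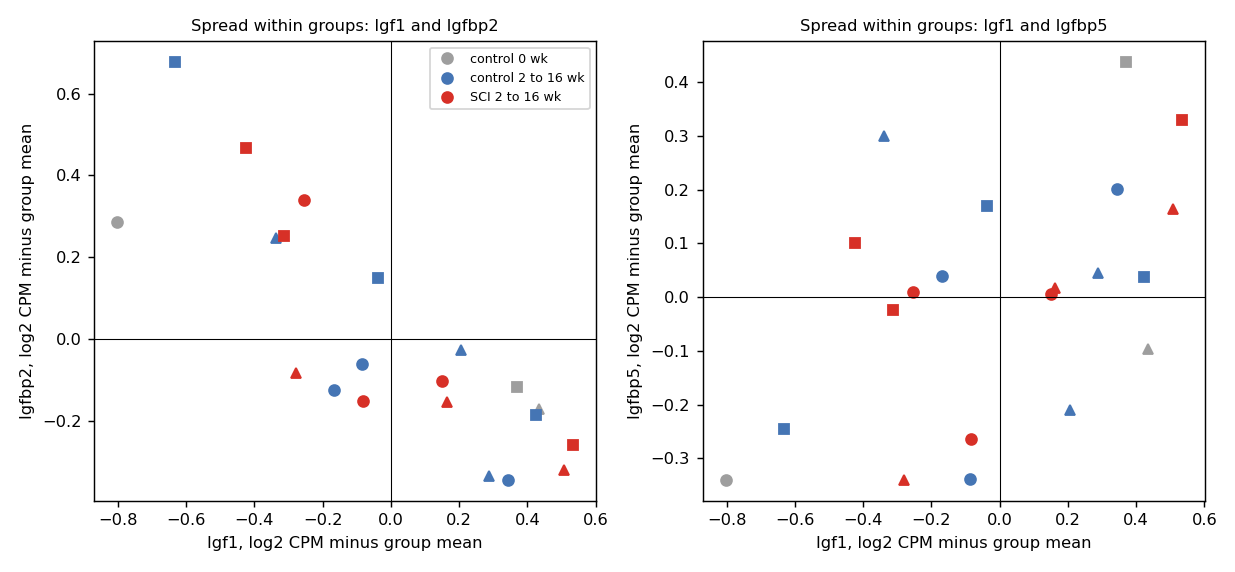
Deviation of each library from the mean of its group in log2 CPM, Igf1 on the x axis against Igfbp2 (left) and Igfbp5 (right), for 21 libraries. Circles, squares and triangles are replicates 1, 2 and 3; on the left the 10 points with positive Igf1 deviation are all below 0 for Igfbp2, and on the right 14 points lie on the same side for both genes.

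The calls of single weeks near the threshold depended on the fit, while the average effects of Igf1 and Igfbp5 were called in every alternative run. Over 29 alternatives, which changed the scaling, test, filter or libraries, the adjusted p of the average effect ranged from 0.000192 to 0.0144 for Igf1 and from 7.91e-07 to 0.00317 for Igfbp5 (edgeR or DESeq2). The 8-week effect passed in 5 of 29 for Igf1 (adjusted p from 0.0240 to 0.207 with edgeR or DESeq2) and in 7 of 29 for Igfbp5 (0.0228 to 0.238). DESeq2 was among these for both genes, with 0.0240 and 0.0228. The 16-week effect passed in 17 of 29 for Igfbp5 (0.0105 to 0.167) and in 0 of 29 for Igf1 (0.0505 to 0.279).

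**Figure D5:**
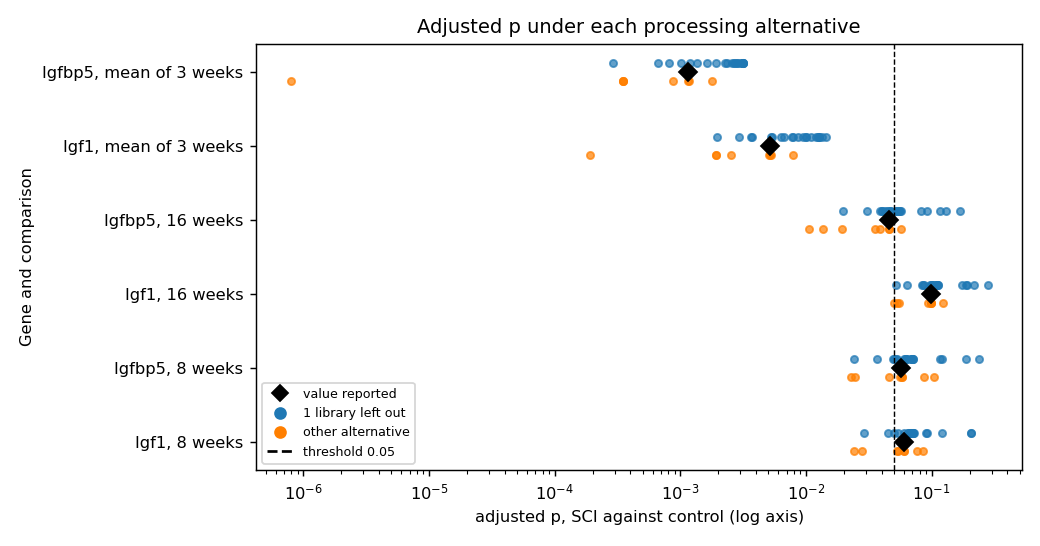
Adjusted p of the SCI effect on Igf1 and Igfbp5 at 8 weeks, at 16 weeks and averaged over 2, 8 and 16 weeks (log axis). Black diamonds are the values reported, blue points the fits without 1 of the 21 libraries, orange points the other 8 alternatives, and the dashed line the threshold of 0.05; the average effects lie wholly to its left, and the effects of single weeks lie near it.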

How the data were processed

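RNA sequencing counts from 21 bladder libraries were analysed. The authors deposited raw counts per Ensembl gene, whole numbers without normalization, combined over 2 flow cells. The libraries were stranded and depleted of ribosomal RNA. The submitters' processing notes name Trim Galore (0.6.10), STAR (2.7.10a), featureCounts (2.0.3) and the build Rnor 6.0, but not the annotation release or the strand setting, so overlapping genes may share reads. Groups came from sample titles, and each column matched 1 sample by name.

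Genes were filtered with filterByExpr of edgeR (4.0.16, R 4.3.3), scaled by TMM (factors 0.903 to 1.09) and fitted with quasi-likelihood models, with 1 mean per group, no covariate and 14 residual degrees of freedom. P-values were adjusted by Benjamini-Hochberg over 15225 genes within each comparison (threshold 0.05), and the scripts were tested on simulated data. Log2 CPM used a prior count of 2. Replicate pairs differed beyond sampling noise (chi-square per degree of freedom 7.22 to 59.9). Every library is labelled with batch 1. DESeq2 (1.42.0), other scaling, filters, fewer libraries and a replicate block were alternatives. The members, lists and comparisons were chosen with earlier results of these data known. The 3 members are named throughout, and for each member the genes most alike and least alike in pattern were sought. A pathway list and cell type markers fixed by symbol were not used here, because 0 genes of the RefSeq table carry an Ensembl identifier.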

Additional observations from a re-analysis of the deposited data

How the results depend on the processing

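The average SCI effects of Igf1 and Igfbp5 kept their sign and call in all 29 alternatives run, and no called effect of a member changed sign. With library size only, the 16-week effect of Igfbp5 was -0.65 and no longer called (edgeR adjusted p = 0.0570); this scaling moved the median of all genes by 0.19 at 8 weeks and 0.10 at 16 weeks, and turned the uncalled average effect of Igfbp2 from -0.02 to 0.09. At 8 weeks, calls were gained by Igf1 (-1.04) and Igfbp5 (-0.65) with DESeq2, and by Igf1 (-1.04, adjusted p = 0.0280) and Igfbp5 (-0.66, 0.0245) without the 0-week controls. Leaving out single libraries gave -1.33 to -0.79 for Igf1 at 8 weeks, -0.80 to -0.50 for Igfbp5 at 8 weeks and -0.86 to -0.65 for Igfbp5 at 16 weeks. Igf1 was called at 8 weeks when replicate 1 or 2 of the 0-week controls or replicate 2 of the 16-week controls was left out, and Igfbp5 when replicate 1 or 2 of the 0-week controls, replicate 1 of the 8-week controls or replicate 3 of SCI at 2 weeks was. Igfbp5 at 16 weeks was also lost without any of the 2-week controls, replicate 2 of the 8-week controls, replicate 1 of SCI at 2 weeks or replicate 3 of SCI at 8 weeks (adjusted p from 0.0521 to 0.0567); leaving out libraries of groups not compared was chosen after seeing the data. With the replicate number as a block (replicate block), Igfbp5 at 8 weeks was -0.66 and called (edgeR adjusted p = 0.0456), and genes called at 16 weeks numbered 1307 instead of 855. The labels give the numbers no shared animal, litter or day. The mean correlation of deviations was 0.02 between libraries of the same number (-0.24 to 0.38) and -0.01 between those of other numbers. Of 63 pairs with the same number, 16 had r over 0.1. Of the 21 libraries, 11 were closest to their own number out of 3 numbers. Over all genes, 32 (without SCI 8 weeks replicate 1) to 3088 (library size only) were called at 8 weeks and 16 (without SCI 16 weeks replicate 1) to 2105 (only the groups compared) at 16 weeks, and 499 higher and 782 lower genes at 8 weeks became 2435 and 653 with library size only. The cause of these shifts was not tested. Depth limits none of the 3 genes, since counting error was below the spread between libraries.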

Other observations

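Likeness of pattern was measured as Pearson's r of log2 CPM over the 21 libraries, against 15224 other tested genes, and is given as a description. ENSRNOG00000018839 was most like Igf1 (r = 0.88), ENSRNOG00000024230 most like Igfbp5 (r = 0.93) and ENSRNOG00000009722 most like Igfbp2 (r = 0.86); the files do not pair these identifiers with symbols. The least alike genes had r = -0.83 for Igf1, -0.92 for Igfbp5 and -0.83 for Igfbp2. Among the members, Igf1 and Igfbp5 had r = 0.57, and 535 genes were more like Igf1 than Igfbp5 was. In likeness to Igfbp5, Igf1 ranked only 2025 of 15224. The r of Igf1 and Igfbp2 was -0.36 and that of Igfbp2 and Igfbp5 -0.11. The libraries share their groups, so part of an r may be the difference between SCI and control, and r was not split into such parts.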
